A study of Mus musculus with 4 samples.

Results

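The sarcomere is the repeating contractile unit of striated muscle, and 34 genes of it and of the contraction machinery around it were followed through 4 single-cell RNA libraries of mouse Achilles tendon. The genes were taken by symbol, or by gene identifier in the library that lists identifiers, from the 27040 genes shared by the gene lists of all libraries, and all 34 were found. They fall into 14 genes of fast fibres, 7 of slow fibres, 3 developmental isoforms and 10 used in all fibre types. Levels were read from raw UMIs, the counts of individual captured RNA molecules, and are given as CPM, a gene's UMIs scaled to 1000000 UMIs of the cells described.

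The series holds 1 library per group, each made from 5 pooled Achilles tendons. The injured groups, labelled B/T, were Vegfc CRE mice at day 7 and Prox1 eGFP mice at days 7 and 21, and the control was uninjured tendon of Prox1 eGFP mice at day 0, labelled as not treated. The labels do not spell out B/T, the age of the mice, the Cre line's reporter or what the eGFP allele is. Their protocol names a sort for Prox1-expressing cells while their cell type field says unsorted, and Prox1 UMIs were present in 1.15% of Vegfc CRE cells and in 8.84%, 96.8% and 86.7% of Prox1 eGFP cells at days 0, 7 and 21. Shares of cell types therefore cannot be compared between libraries as shares of the tendon. After filtering, 18843 cells remained: 6979 in Vegfc CRE at day 7 and 690, 4871 and 6303 in Prox1 eGFP at days 0, 7 and 21, with a median of 8460, 6978, 8457 and 7458 UMIs per cell. With 1 library per group no difference between groups has a replicate check, no test was possible, and all intervals are exact 95% intervals for counting error only, since cells of one library are not replicates. Pairs of libraries shared 2 to 14 cell barcodes.

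Thick filaments are built from myosin heavy chains with their light chains, and thin filaments from alpha actin, tropomyosin and the calcium-sensing troponin complex. Most of these proteins come in isoforms: type I fibres carry the slow heavy chain Myh7, and types IIa, IIx and IIb carry Myh2, Myh1 and Myh4, with matching fast or slow light chains and troponins. Embryonic Myh3, perinatal Myh8 and cardiac actin Actc1 are made while muscle forms and again while it regenerates. Tendon itself holds no striated fibres, but the Achilles tendon joins the fast gastrocnemius and the slow soleus, and satellite cells, the stem cells of muscle, lie beside the fibres.

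The upstream promoter sequences of 4 genes are printed because these genes carry the contrasts below: Acta1, skeletal actin and the most abundant of the 34; Myh4, the leading fast heavy chain; Tnnt1, slow troponin T, counted outside mature muscle too; and Actc1, the actin of differentiating cells. Each is the 250 bases upstream of the RefSeq transcription start, 5′ to 3′ on the gene's strand in build GRCm38.p6, with E-boxes (CANNTG, bound by myogenic bHLH factors) and CArG boxes (bound by serum response factor) in capitals; no 2 of the capitalised matches overlap. Acta1 lies at chr8:123894776-123895025 (minus strand), Myh4 at chr11:67237562-67237811 (plus), Tnnt1 at chr7:4515976-4516225 (minus) and Actc1 at chr2:114052876-114053125 (minus).
Acta1: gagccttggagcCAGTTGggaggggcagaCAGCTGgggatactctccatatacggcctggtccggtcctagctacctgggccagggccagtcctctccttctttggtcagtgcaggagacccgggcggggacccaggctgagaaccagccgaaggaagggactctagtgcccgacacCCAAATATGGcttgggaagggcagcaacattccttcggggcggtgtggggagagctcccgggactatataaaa
Myh4: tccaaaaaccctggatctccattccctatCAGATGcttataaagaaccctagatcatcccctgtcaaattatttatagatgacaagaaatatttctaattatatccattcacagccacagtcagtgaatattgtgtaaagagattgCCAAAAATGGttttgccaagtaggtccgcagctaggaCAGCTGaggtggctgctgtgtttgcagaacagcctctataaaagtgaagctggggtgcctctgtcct
Tnnt1: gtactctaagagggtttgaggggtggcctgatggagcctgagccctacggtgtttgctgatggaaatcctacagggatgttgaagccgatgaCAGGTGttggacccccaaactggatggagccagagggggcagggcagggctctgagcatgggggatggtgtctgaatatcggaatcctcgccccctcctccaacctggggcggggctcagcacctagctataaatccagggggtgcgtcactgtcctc
Actc1: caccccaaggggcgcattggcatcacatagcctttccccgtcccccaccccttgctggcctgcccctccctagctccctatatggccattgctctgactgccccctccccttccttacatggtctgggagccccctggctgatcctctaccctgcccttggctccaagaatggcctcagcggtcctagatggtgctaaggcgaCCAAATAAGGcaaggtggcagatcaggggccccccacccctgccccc
Promoters of 29 of the 34 genes were in the RefSeq table. Searched on both strands, an E-box was in 24 of the 29 and in 66.1% of 27018 mouse promoters of the same length. A CArG box was in 4 of the 29 (Actc1, Acta1, Myl3 and Myh4) and in 1.40% of all promoters, and the MEF2 motif was in 1 of the 29 (Ttn) and in 0.518% of all. TATAAA on the gene's strand was in 5 of the 29 (Tnnt1, Acta1, Myh3, Myh1 and Myh4) and in 8.12% of all promoters. These matches describe letters in this window and show no binding.

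Muscle barcodes were found by clustering all cells without the 34 genes and without 48 further sarcomere genes, so their levels played no part in forming the clusters. Their UMIs did count in the cell filter, in the doublet calls and in the totals behind the marker levels. A mature muscle-like class (clusters 20 and 30) was named from metabolic and membrane genes of muscle such as Eno3, Pgam2, Cox6a2 and Pygm, of which all 14 were detected at both day 21 and day 7 of Prox1 eGFP. It held 16 of 6979 Vegfc CRE cells, 0.229% (0.131 to 0.372), and 0 of 690 cells at day 0, which allows a share of up to 0.533%, 134 of 4871 cells at day 7, 2.75% (2.31 to 3.25), and 107 of 6303 at day 21, 1.70% (1.39 to 2.05). A myocyte-like class (cluster 14) held 2 cells in Vegfc CRE and 0, 161 and 117 in Prox1 eGFP at days 0, 7 and 21. It was named from Myog, Mymk, Megf10 and Lrrn1, 4 of the 8 markers of its list. That share of 0.5 was close to the 0.444 of the progenitor list found in the same cluster. A muscle progenitor-like class held 38 cells in Vegfc CRE and 1, 3498 and 3385 in Prox1 eGFP at days 0, 7 and 21. The mature barcodes differed in depth and mitochondrial share between libraries: their median depth was 5655 UMIs at day 21 and 2331.5 in Vegfc CRE, against 15032 in Prox1 eGFP at day 7, and their median mitochondrial share was 0.247% and 4.56%, against 0.0245%. These differences accompany every comparison of mature barcodes below, and their part in them was not tested. A Prox1 UMI was present in 33.6% of mature barcodes at day 21 and in 38.8% at day 7, against 96.4% and 99.0% of progenitor-like cells of the same libraries.

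Over all cells of a library, the 34 genes together took 999 CPM in the Vegfc CRE library at day 7, and 216 CPM, 15721 CPM and 4408 CPM in Prox1 eGFP at days 0, 7 and 21. At days 7 and 21 of Prox1 eGFP nearly all of the striated muscle RNA lay in the few mature muscle-like barcodes. Of the UMIs of 30 members, leaving out Tpm1, Tpm2, Des and Actc1, which smooth muscle, pericytes or satellite cells also make, these barcodes held 70.5% of 14597 UMIs in Vegfc CRE, 0 of 742 at day 0, 95.1% of 737342 at day 7 and 92.1% of 191646 at day 21. Acta1 had 2740 UMIs in Vegfc CRE and 0, 164323 and 48165 UMIs at days 0, 7 and 21 of Prox1 eGFP. The day 0 library thus held no UMI of skeletal actin among 6675468 UMIs, and day 7 held the most of the 4. Myh4, a fast heavy chain, had 417 UMIs in Vegfc CRE and 0, 6323 and 523 at days 0, 7 and 21, and slow Myh7 had 1 and 0, 358 and 216. Actc1 differed from both, with 127 UMIs in Vegfc CRE and 0, 3807 and 3877 at days 0, 7 and 21.

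A difference of at least 2-fold between 2 libraries was counted for genes with at least 10 UMIs over the pair. Day 7 against day 0 of Prox1 eGFP gave 33 of the 34 genes higher, where 29.0% of all genes were, and 0 lower, where 17.8% were; the exception was Actn2, sarcomeric alpha-actinin, with 22.8 CPM at day 7 and 20.2 CPM at day 0. Day 21 against day 0 gave 29 genes higher, where 26.7% of all genes were, and 1 lower, Actn2 with 6.96 CPM, where 17.7% were. Day 21 against day 7 gave 27 lower, where 7.29% of all genes were, and 0 higher, where 10.4% were. Vegfc CRE against Prox1 eGFP at day 7 gave all 34 lower, where 19.6% of all genes were, and 0 higher, where 23.3% were. These pairs share libraries and the 34 genes share their barcodes, so the counts are not independent of each other or of the number of mature barcodes in each library.

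**Figure D1:**
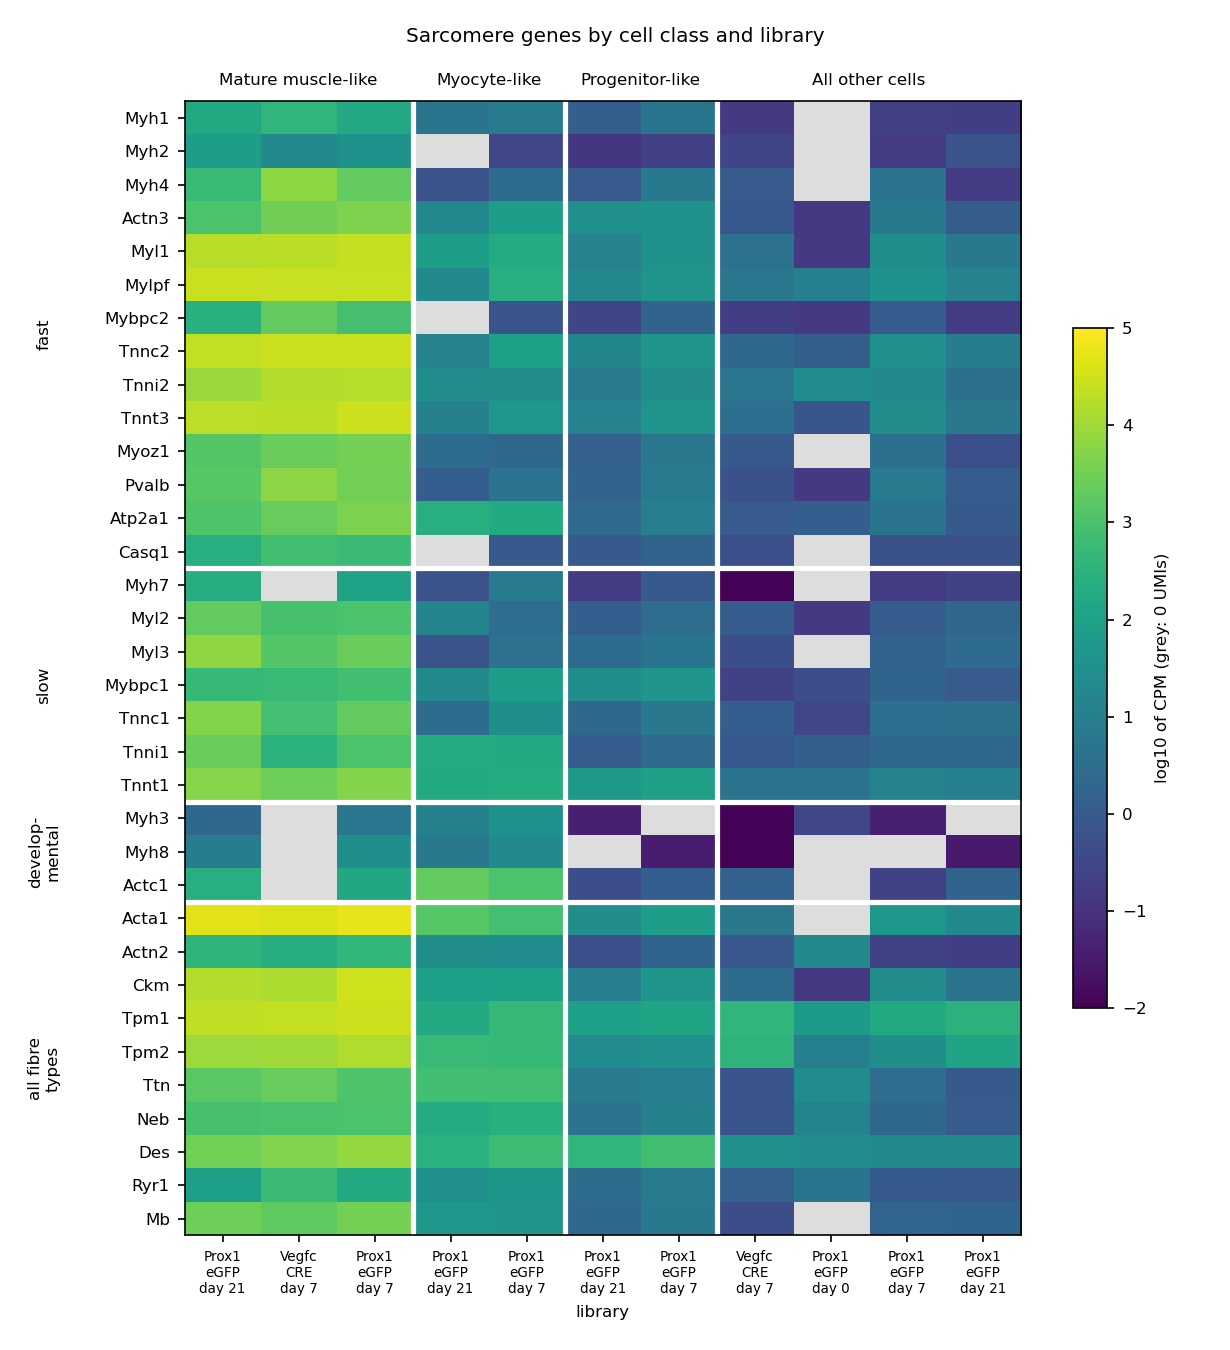
Heat map of the CPM (log10, colour; grey is 0 UMIs) of the 34 genes, rows grouped as fast, slow, developmental and all fibre types, in mature muscle-like, myocyte-like, progenitor-like and all other cells of each library. Mature muscle-like columns reach 55562 CPM for Acta1 at day 7, while most genes of the other-cells columns lie below 100 CPM.

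Within mature muscle-like barcodes the 34 genes made up a median of 23.3% of a barcode's UMIs at day 21 (2.27% to 46.1%) and 24.9% in Vegfc CRE (7.78% to 39.5%), against 25.6% at day 7 of Prox1 eGFP (2.19% to 45.2%). Acta1 led in every library, with 49629 CPM at day 21, 42383 CPM in the Vegfc CRE library and 55562 CPM in Prox1 eGFP at day 7. Ckm, the creatine kinase that buffers ATP, had 15746 CPM at day 21, 13902 CPM in the Vegfc CRE library and 30739.9 CPM in Prox1 eGFP at day 7. The tropomyosins Tpm1 and Tpm2, which cover actin's myosin sites, had 21389 and 9639 CPM at day 21 and 22917 and 9908 CPM in the Vegfc CRE library, against 28937 and 14974 CPM at day 7. These genes of all fibre types kept the order Acta1, then Ckm or Tpm1, then Tpm2 in all 3 libraries. The giant scaffold genes Ttn (titin) and Neb (nebulin) were lower in level and within 2-fold between the days in the sum over both mature clusters. Ttn had 1655 CPM at day 21, 2288 CPM in the Vegfc CRE library and 1212 CPM in Prox1 eGFP at day 7, with 85 of its 118 UMIs in Vegfc CRE and 383 of its 1479 at day 21 in 1 barcode each. Neb had 935 CPM at day 21, 989 CPM in the Vegfc CRE library and 1009 CPM in Prox1 eGFP at day 7. The 2 clusters went opposite ways. In cluster 30 both genes were higher at day 21, Ttn with 3846 against 666 CPM and Neb with 1669 against 516 CPM. In cluster 20 both were lower at day 21, Ttn with 705 against 1262 CPM and Neb with 617 against 1055 CPM. UMIs here count 3′ ends, 1 per captured molecule, so levels of different genes carry no length term. Actn2, which anchors actin at the Z disc, had 376 CPM at day 21 against 423 CPM at day 7, and the oxygen carrier Mb had 2874 against 3411 CPM. In Vegfc CRE Mb had 1881 CPM and Actn2 233 CPM, and Des had 250 UMIs and Ryr1 31. Des, the desmin filament that ties Z discs together, had 3149 CPM (2815 UMIs) at day 21, against 7754 CPM (22029 UMIs) at day 7, 2.46-fold lower (95% interval 2.37 to 2.56). Ryr1, the calcium release channel, had 88.4 CPM (79 UMIs) at day 21, against 185 CPM (525 UMIs) at day 7, 2.09-fold lower (95% interval 1.65 to 2.68). In cluster 30 alone neither was 2-fold lower: Des had 3109 against 3604 CPM and Ryr1 167 against 99.9 CPM.

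Among the fast genes, the abundant light chain and troponin genes differed by less than 2-fold between days. The fast heavy chain Myh4 and several rarer fast genes were lower at day 21 in the sum over both mature clusters. Mylpf, the fast regulatory light chain, had 26848 CPM at day 21, 25826 CPM in the Vegfc CRE library and 25702 CPM in Prox1 eGFP at day 7. Myl1, the fast essential light chain, had 17678 CPM at day 21 against 23882 CPM at day 7, though 27.2% of the 31-base words in its last 500 transcript bases are shared with other genes. Fast troponins C, T and I (Tnnc2, Tnnt3 and Tnni2) had 22832, 20275 and 9135 CPM at day 21, against 27243, 29039 and 16546 CPM at day 7. All 3 were on the lower side at day 21 but inside 2-fold. In Vegfc CRE they had 26737, 19059 and 15859.8 CPM, and Myl1 19233 CPM.

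Myh4, the type IIb heavy chain at chr11:67238029-67260446, had 550.4 CPM (492 UMIs) at day 21, against 2114 CPM (6007 UMIs) at day 7, 3.84-fold lower (95% interval 3.5 to 4.22). One barcode held 166 of the 492 UMIs at day 21. In Vegfc CRE Myh4 had 327 UMIs, of which 312 came from 1 barcode, so its 6340.0 CPM there describes that barcode. Actn3, the alpha-actinin of fast Z discs, had 1059 CPM (947 UMIs) at day 21, against 4524 CPM (12853 UMIs) at day 7, 4.27-fold lower (95% interval 4.0 to 4.57). Atp2a1, the fast calcium pump that lets a fibre relax, had 1182 CPM (1057 UMIs) at day 21, against 4046 CPM (11495 UMIs) at day 7, 3.42-fold lower (95% interval 3.21 to 3.65). Mybpc2, the fast myosin-binding protein C, had 282 CPM (252 UMIs) at day 21, against 885 CPM (2515 UMIs) at day 7, 3.14-fold lower (95% interval 2.76 to 3.59). Myoz1, a Z-disc binder of calcineurin, Pvalb, the calcium buffer parvalbumin, and Casq1, the calcium store calsequestrin, had 1332, 1474 and 267 CPM at day 21, against 3506, 3336 and 586 CPM at day 7. All 3 were between 2.19-fold and 2.63-fold lower at day 21. These are sums over both mature clusters. In cluster 30 alone Myh4 was 5.65-fold lower at day 21, but other fast genes fell short of 2-fold. There Actn3 was 1.92-fold, Mybpc2 1.59-fold, Atp2a1 1.39-fold, Pvalb 1.36-fold and Myoz1 1.28-fold lower. Casq1 was 2.09-fold higher at day 21 in that cluster, with 148 against 70.7 CPM. The 16 Vegfc CRE barcodes had 322 Pvalb UMIs (6243 CPM), 153 of Actn3 (2966 CPM), 124 of Atp2a1 (2404 CPM) and 109 of Mybpc2 (2113 CPM), with 126 of Myoz1, 38 of Casq1 and 21 of Myh1. The only Vegfc CRE barcode of cluster 20 held 75 of the Mybpc2, 154 of the Pvalb and 66 of the Actn3 UMIs, and the other 15 barcodes had 784 CPM of Mybpc2, 3876 CPM of Pvalb and 2007 CPM of Actn3.

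The other fast heavy chains did not follow Myh4. Myh1 (type IIx) had 182 CPM (163 UMIs) at day 21, against 163 CPM (463 UMIs) at day 7, a ratio of 1.12 (95% interval 0.930 to 1.34). Myh2 (type IIa) had 86.1 CPM (77 UMIs) at day 21, against 38.4 CPM (109 UMIs) at day 7, 2.25-fold higher (95% interval 1.65 to 3.03). By the mean over barcodes the log2 ratio of Myh1 was 1.14, against 0.16 by the sum. At day 7 the Myh2 UMIs came from 10 of 134 barcodes and 1 barcode held 42 of the 109. Myh1, Myh2, Myh4 and Myh8 are neighbours on chromosome 11 and share 11.1% to 21.9% of the 31-base words of their last 500 transcript bases with other genes, so reads between them could be misplaced or dropped.

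Of the 7 slow genes, 4 were more than 2-fold higher at day 21 when UMIs were summed over barcodes. Myl3, the slow essential light chain, had 6835 CPM (6110 UMIs) at day 21, against 2548 CPM (7240 UMIs) at day 7, 2.68-fold higher (95% interval 2.59 to 2.78). Tnnc1, slow troponin C, had 5119 CPM (4576 UMIs) at day 21, against 2066 CPM (5869 UMIs) at day 7, 2.48-fold higher (95% interval 2.38 to 2.58). Tnni1, slow troponin I, had 2639 CPM (2359 UMIs) at day 21, against 1053 CPM (2993 UMIs) at day 7, 2.51-fold higher (95% interval 2.37 to 2.64). These 3 were the slow genes with the widest gap between the days. Myh7, the slow heavy chain, had 228 CPM (204 UMIs) at day 21, against 107 CPM (303 UMIs) at day 7, 2.14-fold higher (95% interval 1.78 to 2.56); 1 barcode held 67 of the 204 UMIs at day 21, and 59.8% of the words in its 3′ end are shared, mostly with the cardiac heavy chain Myh6. Myl2, the slow regulatory light chain, had 2104 against 1071 CPM, 1.96-fold. Tnnt1 had 5449 against 4972 CPM and Mybpc1, the slow myosin-binding protein C, 501 against 783 CPM. The 2 mature clusters differed here as well. In cluster 30 alone Myh7 was 3.10-fold, Mybpc1 2.45-fold and Myl3 2.28-fold higher at day 21. There Tnnc1 was at 1.59, Myl2 at 1.12, Tnni1 at 1.03 (95% interval 0.902 to 1.19) and Tnnt1 at 1.01 times day 7. In cluster 20 alone Myl3 had 7955 against 2612 CPM, Tnnc1 5647 against 2030 CPM and Tnni1 3046 against 999 CPM. Myh7 had 97.8 against 101 CPM there. In the 16 Vegfc CRE barcodes Myh7 was at 0 UMIs, a level below 58.2 CPM by a limit of 3 counts, and Tnni1 had 15 UMIs, Tnnc1 42, Myl3 68, Myl2 48, Mybpc1 27 and Tnnt1 149.

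As shares within each protein family, which do not depend on library totals, summed UMIs at day 21 held more slow isoform than at day 7. Tnni1 was 22.4% (21.6 to 23.2) of troponin I at day 21 and 1.80% (1.01 to 2.95) in Vegfc CRE, against 5.99% (5.78 to 6.20) in Prox1 eGFP at day 7. Tnnc1 was 18.3% of troponin C at day 21 and 2.96% in Vegfc CRE, against 7.05%. Myl2 and Myl3 together were 16.7% of light chain UMIs at day 21 and 4.75% in Vegfc CRE, against 6.80%. Tnnt1 was 21.2% of troponin T at day 21 and 13.2% in Vegfc CRE, against 14.6%. Every slow share of these 4 families was thus higher in the day 21 sum. Among 946 heavy chain UMIs at day 21, Myh4 made up 52.0% (48.8 to 55.2), Myh7 21.6%, Myh1 17.2% and Myh2 8.14%. Among 6984 at day 7, Myh4 made up 86.0% (85.2 to 86.8), Myh1 6.63%, Myh7 4.34% and Myh2 1.56%. Myosin-binding protein C was 64.0% Mybpc1 at day 21 and 19.9% in Vegfc CRE, against 46.9% at day 7. The level of Mybpc1 was itself lower at day 21 (501 against 783 CPM), and that of Mybpc2 was lower by more (282 against 885 CPM). Without the 1 cluster 20 barcode, Mybpc1 was 37.0% in Vegfc CRE (20 of 54 UMIs), and Myh4 was 40.5% of 37 heavy chain UMIs there, beside 56.8% for Myh1.

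A sum weights deep barcodes more, and the shares moved when each barcode with at least 10 UMIs of a family counted equally. The mean share of Tnni1 was then 31.1% at day 21 and 30.6% at day 7, so the gap of the summed share was absent. The mean share of Myl2 and Myl3 was 32.7% at day 21 and 23.7% at day 7, and that of Myh4 was 45.8% and 73.9%. The 2 clusters also differed: in cluster 30 alone Tnni1 was 24.8% of troponin I at day 21 and 28.3% at day 7. The lower Myh4 share at day 21 was present in cluster 20 (63.6% against 86.9%), in cluster 30 (18.2% against 67.8%) and in the mean over barcodes.

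**Figure D2:**
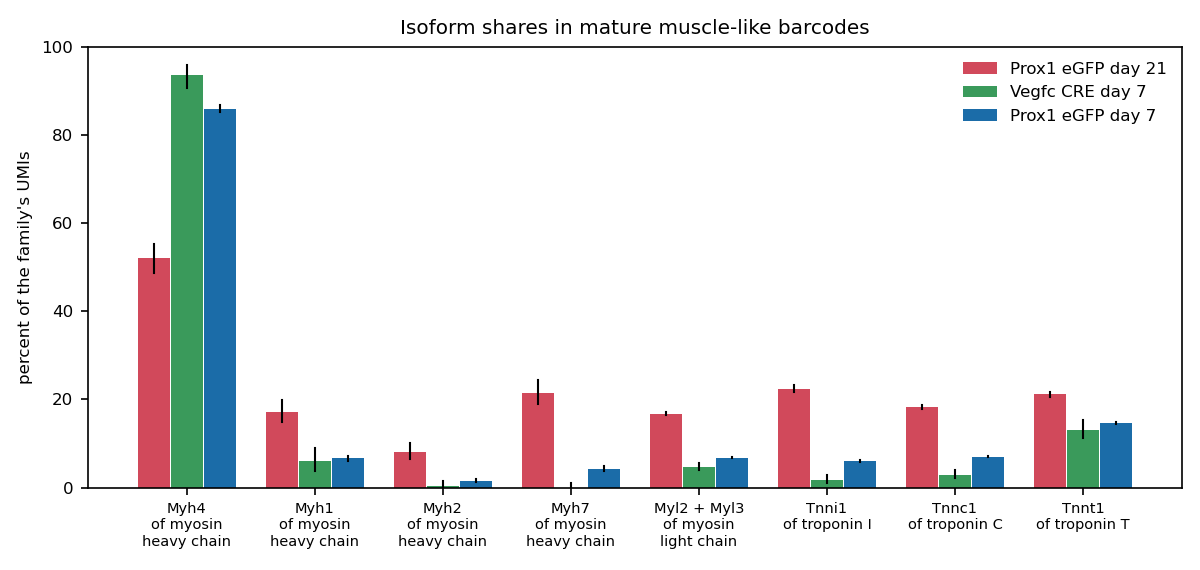
Bars give each isoform's percent of the UMIs of its family, summed over mature muscle-like barcodes of Prox1 eGFP day 21, Vegfc CRE day 7 and Prox1 eGFP day 7, with exact 95% intervals of counting error. Myh4 stands at 52.0%, 93.7% and 86.0% of heavy chain, the Vegfc CRE value resting on 1 barcode without which it is 40.5%, and the slow isoforms are highest in the day 21 bars.

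The slow share of a barcode was taken over its light chain, troponin I and troponin C UMIs. Its median was 9.30% over 107 barcodes at day 21 and 0% over 16 in Vegfc CRE, against 2.76% over 134 at day 7. A slow share over 50% was found in 31 of 107 barcodes at day 21, 29.0% (20.6 to 38.5), and in 0 of 16 in Vegfc CRE, against 30 of 134 at day 7, 22.4% (15.6 to 30.4). The intervals of the 2 days overlap. A share over 90% was found in 26 of 107 at day 21, 24.3% (16.5 to 33.5), against 11 of 134 at day 7, 8.21% (4.17 to 14.2). Barcodes under 10% slow numbered 56 at day 21 and 12 in Vegfc CRE, against 71 at day 7. Between 10% and 50% were 20 at day 21 and 4 in Vegfc CRE, against 33 at day 7, of which 22 were among the 41 barcodes of cluster 30. Among the barcodes of these 2 libraries, fast ones were thus about as common on both days, and almost purely slow ones were more common at day 21. The barcodes of day 21 were shallower, with a median of 5655 against 15032 UMIs. The part of depth in the count over 90% was not tested.

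Where a barcode had enough heavy chain UMIs, its leading heavy chain mostly matched its light chains and troponins. Of 19 barcodes with at least 10 heavy chain UMIs at day 21, Myh4 led in 8, Myh1 in 6, Myh7 in 4 and Myh2 in 1; of 76 at day 7, Myh4 led in 58, Myh7 in 8, Myh1 in 5, Myh2 in 4 and Myh8 in 1. The leading chain held a median of 100% of a barcode's heavy chain UMIs at day 21 and 99.6% at day 7. At day 21 all 8 Myh4-led and all 6 Myh1-led barcodes had a slow share under 10%, and 3 of the 4 led by Myh7 were over 50%. At day 7, 57 of 58 led by Myh4 were under 10%, the 4 led by Myh2 lay between 15.7% and 28.1%, and 7 of 8 led by Myh7 were over 50%. Only 19 of 107 and 76 of 134 barcodes had enough heavy chain UMIs to be placed, and the barcodes of day 21 were shallower.

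**Figure D3:**
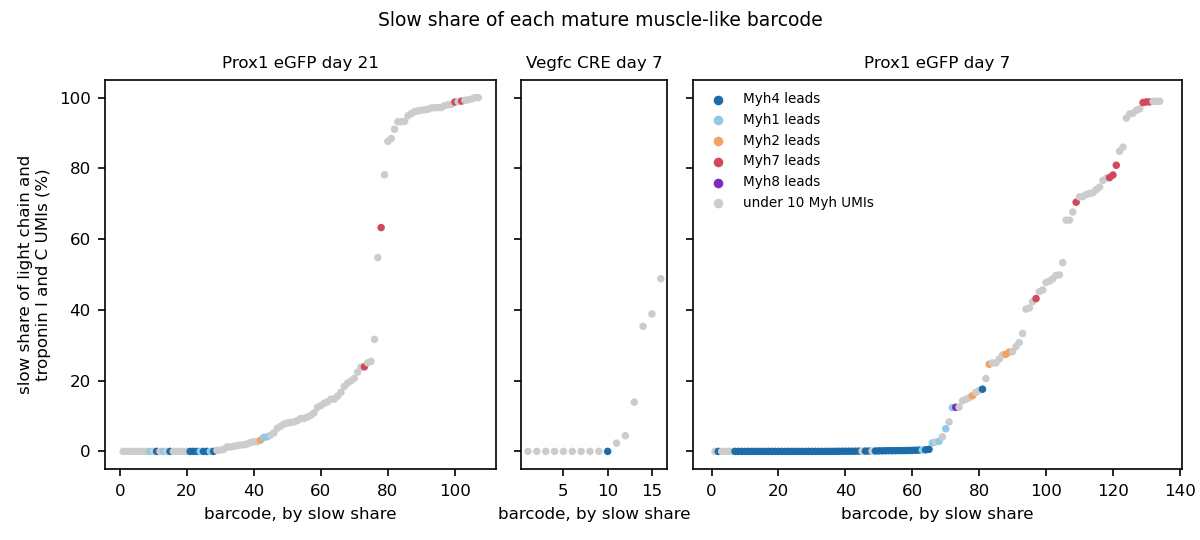
Each point is 1 mature muscle-like barcode, ordered by its slow share (percent of light chain, troponin I and troponin C UMIs) within Prox1 eGFP day 21, Vegfc CRE day 7 and Prox1 eGFP day 7, coloured by the heavy chain with most UMIs. Nearly all Myh4-led points lie under 10% and most Myh7-led points above 50%; grey points have under 10 heavy chain UMIs.

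Counted together, 5 of the 34 genes were at least 2-fold higher at day 21 than at day 7 in mature muscle-like barcodes (Myh2, Myh7, Myl3, Tnnc1 and Tnni1), where 9.93% of 8853 genes were. A further 11 were at least 2-fold lower (Myh4, Actn3, Mybpc2, Myoz1, Pvalb, Atp2a1, Casq1, Myh3, Myh8, Des and Ryr1), where 10.7% of all genes were, and 18 were within 2-fold. The median log2 ratio was -0.44 over the 34 genes, -0.99 over the 14 fast and 1.10 over the 7 slow genes, beside 0.08 over all genes. By the mean CPM over barcodes these medians were -0.24, -0.49 and 0.36 for the 34, the fast and the slow genes. By the mean CPM over barcodes, 4 were higher (Myh1, Myh2, Myl3 and Actc1) and 7 lower; those called both ways were Myh2 and Myl3 (higher) and Myh4, Actn3, Mybpc2, Myoz1, Atp2a1, Myh3 and Des (lower). The log2 ratio of Myh7 was -0.02 by that mean and 1.10 by the sum, that of Tnni1 0.82 and 1.32, and that of Tnnc1 0.77 and 1.31. Myh3 rested on 14 of 16 UMIs of 1 barcode at day 7, without which its log2 ratio was 1.65, and Myh8 on 51 of 86 UMIs of 1 barcode. In cluster 20 alone 5 were higher and 9 lower, where 6.77% and 16.4% of all genes were; in cluster 30 alone 7 were higher and 4 lower, where 9.92% and 19.9% were. The fibroblast marker list (7 genes) summed to 61.5 CPM in mature barcodes at day 21 with 1 at 0, against 326 CPM at day 7 with 0 at 0, and the progenitor list (9 genes) to 252 CPM with 1 at 0, against 147 CPM with 0 at 0; their part in these differences was not tested.

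**Figure D4:**
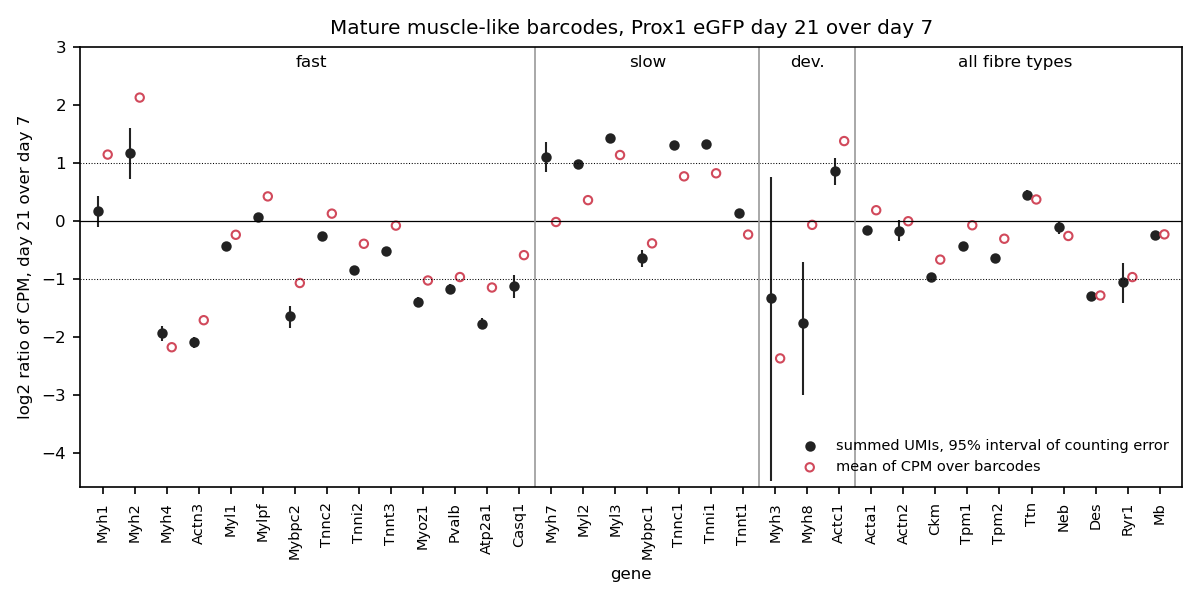
Log2 ratio of CPM, Prox1 eGFP day 21 over day 7, for each of the 34 genes in mature muscle-like barcodes; filled points are summed UMIs with exact 95% intervals of counting error, open points the mean CPM over barcodes, dotted lines 2-fold. Most fast genes lie below 0 and 6 of the 7 slow genes above it by the sum, where Myh7 moves to -0.02 by the mean over barcodes.

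Of the 48 further sarcomere and contraction genes, 42 could be compared in mature muscle-like barcodes. At least 2-fold higher at day 21 than at day 7 were 8, where 9.93% of all genes were, and 6 were lower, where 10.7% were. Their median log2 ratio was -0.10. The 5 most abundant were Tcap, Tpm3, Sln, Smpx and Myoz2. Tpm3, the slow tropomyosin, had 7155 CPM at day 21 and 950.0 CPM in the Vegfc CRE library, against 3228 CPM at day 7 of Prox1 eGFP. Myoz2, a slow-fibre Z-disc protein, had 2076 CPM at day 21 and 388 CPM in the Vegfc CRE library, against 759 CPM at day 7. Sln, sarcolipin, a small regulator of the calcium pump, had 942 CPM at day 21 and 1357 CPM in the Vegfc CRE library, against 4217 CPM at day 7. Tcap, which caps titin at the Z disc, had 5710 CPM at day 21 and 2617 CPM in the Vegfc CRE library, against 5822 CPM at day 7, and Smpx, a small muscle protein, had 1585 and 446 CPM, against 1018 CPM.

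The developmental isoforms were counted in part of the myocyte-like cells. An Actc1 UMI was present in 52 of 117 cells at day 21 and in 38 of 161 at day 7. Actc1 had 2148 CPM (3574 UMIs) at day 21, against 1009 CPM (3347 UMIs) at day 7, 2.13-fold higher (95% interval 2.03 to 2.23), and made up 59.5% (58.2 to 60.7) of alpha actin UMIs at day 21 and 55.3% (54.1 to 56.6) at day 7. In mature barcodes it was 0.534% at day 21 and 0% of 2186 UMIs in Vegfc CRE, against 0.265% at day 7 of Prox1 eGFP. Embryonic Myh3 had 20 UMIs in 12 of 117 cells at day 21, against 123 UMIs in 17 of 161 cells at day 7, of which 63 were in 1 cell. Perinatal Myh8 had 11 UMIs in 3 cells at day 21, against 70 in 8 cells at day 7, with 7 and 48 of them in 1 cell. The 2 developmental chains made up 73.8% of 42 heavy chain UMIs at day 21 and 76.9% of 251 at day 7. Heavy chains were therefore sparse in myocyte-like cells, and those present were mainly developmental.

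Slow troponins I and T led in the summed UMIs of these cells on both days. For troponin I few cells set the sum. A Tnni1 UMI was present in 27 of 117 cells at day 21 and in 38 of 161 at day 7, and a Tnni2 UMI in 14 and 37. The 5 cells with most Tnni1 held 62.7% of its UMIs at day 21 and 47.1% at day 7. Tnni1 was 88.7% (85.2 to 91.6) of troponin I at day 21 and 87.5% (84.9 to 89.9) at day 7, and Tnnt1 was 94.2% (91.1 to 96.4) of troponin T at day 21 and 80.6% (77.9 to 83.1) at day 7, where 1 cell held 104 of the 176 UMIs of fast Tnnt3. Tnnc2 was 80.8% of 26 troponin C UMIs at day 21 and 75.1% of 414 at day 7, but 1 cell held 11 of its 21 UMIs at day 21 and 1 cell 212 of its 311 at day 7, so these shares describe few cells. Titin had 749 CPM (1247 UMIs) at day 21, against 705 CPM (2339 UMIs) at day 7, with 302 and 355 of these UMIs in 1 cell each. Nebulin had 198 CPM (329 UMIs) at day 21, against 274 CPM (909 UMIs) at day 7. Ckm, abundant in mature barcodes, had 91.3 CPM at day 21 and 96.2 CPM at day 7 in myocyte-like cells. Of 31 genes that could be compared, 2 were at least 2-fold higher at day 21 (Actc1 and Myl2, Myl2 on 22 UMIs at day 21 against 11 at day 7), where 4.35% of all genes were, and 15 were lower, where 23.1% were. The lower genes included Mylpf (37 UMIs at day 21 against 829 at day 7, 617 of them in 1 cell), Actn3 (29 against 282), Mybpc1 (37 against 284) and Tnnc1 (5 against 103). The cells compared differed in stage markers too, though not all in 1 direction. Myog, the factor of terminal differentiation, was present in 85.5% of cells at day 21 with 4668 CPM, against 37.9% with 1843 CPM at day 7. Mymk, Megf10 and Tmem182 of the same list were also higher at day 21. Mymx (57.7 against 102.8 CPM), Lrrn1 (27.0 against 48.6 CPM), Mef2c (84.1 against 87.5 CPM) and Myf6 (0 against 4.83 CPM) were lower. The progenitor list (9 genes, 0 at 0 on both days) summed to 1011 CPM at day 21 against 2394 CPM at day 7. Within it Myod1 was higher at day 21, with 437 against 237 CPM, and the other genes were lower. Markers of other cell types differed as well: the fibroblast list (7 genes) summed to 173 CPM at day 21 with 0 at 0, against 1014 CPM at day 7 with 2 at 0, and the mural list (7 genes) to 20.4 CPM with 4 at 0, against 140.5 CPM with 1 at 0. The part of these markers in the 15 lower genes was not tested.

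Muscle progenitor-like cells, the largest class of Prox1 eGFP at days 7 and 21, contained low levels of most of the 34 genes. Acta1 had 28.6 CPM (688 UMIs) at day 21, against 86.6 CPM (2459 UMIs) at day 7. At least 2-fold lower at day 21 than at day 7 were 22 of 31 genes, where 10.6% of all genes were, and 0 were higher, where 4.87% were. Genes within 2-fold were Actn3, Casq1, Myl3, Mybpc1, Tnnt1, Tpm1, Tpm2, Ttn and Des. Of these, Des had 398 CPM (9586 UMIs) at day 21, against 739 CPM (20991 UMIs) at day 7, Tnnt1 58.1 CPM (1399 UMIs) at day 21, against 103 CPM (2915 UMIs) at day 7, Mybpc1 31.5 CPM (758 UMIs) at day 21, against 45.7 CPM (1298 UMIs) at day 7 and Actn3 33.0 CPM (794 UMIs) at day 21, against 35.9 CPM (1020 UMIs) at day 7. In Vegfc CRE only 38 progenitor-like cells were found, and Des had 67 UMIs, Tpm1 39, Ttn 13 and Acta1 7 there. Against day 7 of Prox1 eGFP these gave 3 of 31 genes higher, where 12.9% of all genes were, and 11 lower, where 13.1% were. The 3 higher genes were Ttn on 13 UMIs, Ryr1 on 4 and Actc1 on 1. Among the lower genes, Tnnc2, Tnni2, Atp2a1 and Ckm had 1 UMI each. Genes at 0 UMIs in Vegfc CRE, such as Myh4 with 195 UMIs in Prox1 eGFP, were not counted as lower. Many of the genes had too few UMIs in these 38 cells for the counts to describe a difference between the libraries.

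Within a library, RNA from 1 source keeps its genes in 1 ratio in every cell type, so each gene's UMIs were set against those that its Acta1 ratio in mature barcodes of the same library gives. In progenitor-like cells abundant fast genes lay close to that ratio: Mylpf was at 1.12 times it at day 21 and 1.07 at day 7, Tnnc2 at 1.25 and 1.06, and Tnnt3 at 1.12 and 0.931. Ckm, a gene of all fibre types, was at 1.11 and 0.949. Others were far above it. Des was at 219.6 times the ratio at day 21 (203 to 238) and 61.2 at day 7 (58.7 to 63.8), and Mybpc1 at 109 (98.3 to 121) and 37.4 (35.0 to 40.1). Ryr1 was at 58.0 and 25.7, Actn3 at 54.1 and 5.09, and Tnnt1 at 18.5 and 13.2. Neb was at 8.87 and 7.01 and Ttn at 7.85 and 5.30, both rare, and Myh1 at 12.3 and 21.2, with 65 of its 153 UMIs at day 7 in 1 barcode. Of the 30 genes left after Tpm1, Tpm2, Des and Actc1, 12 of 24 with enough UMIs were over 2-fold above the ratio at day 21 and 10 of 26 at day 7, and none was over 2-fold below. Slow troponin T was spread over many cells, with a Tnnt1 UMI in 912 of the 3385 cells of day 21 and in 1587 of the 3498 of day 7. An Acta1 UMI was present in 477 and 1548 of these cells, so at day 7 the spread did not set Tnnt1 apart.

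Endothelial-like cells, which make no sarcomeres, served as a measure of background. They held the 30 genes at a summed 82.8 CPM at day 21 and 35.1 CPM in the Vegfc CRE library, against 182 CPM at day 7 of Prox1 eGFP. Of 19 genes at day 21, 14 lay within 2-fold of the Acta1 ratio of mature barcodes, and Actn3, Atp2a1, Mybpc1, Tnnt1 and Neb lay above; of 22 at day 7, 15 lay within, and Mybpc1, Tnnc1, Tnni1, Tnnt1, Ttn, Neb and Ryr1 lay above. Vegfc CRE endothelial-like cells departed more, with 3 of 9 genes within, 4 above and 2 below. In fibroblast or tenocyte-like cells 6 of 16 were within, 4 above and 6 below at day 21 of Prox1 eGFP, and 12 of 22 within and 10 above in Vegfc CRE, so the Acta1 ratio of mature barcodes did not describe every class. For Mybpc1 and Tnnt1 the multiples were smaller than in progenitor-like cells: Mybpc1 was at 7.00 times the ratio at day 21 and 3.05 at day 7, and Tnnt1 at 4.25 and 4.09. As levels at day 7, Tnnt1 had 103 CPM in progenitor-like and 13.1 CPM in endothelial-like cells, Mybpc1 45.7 and 1.54 CPM, Actn3 35.9 and 4.17 CPM, and Des 739 and 20.3 CPM.

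**Figure D5:**
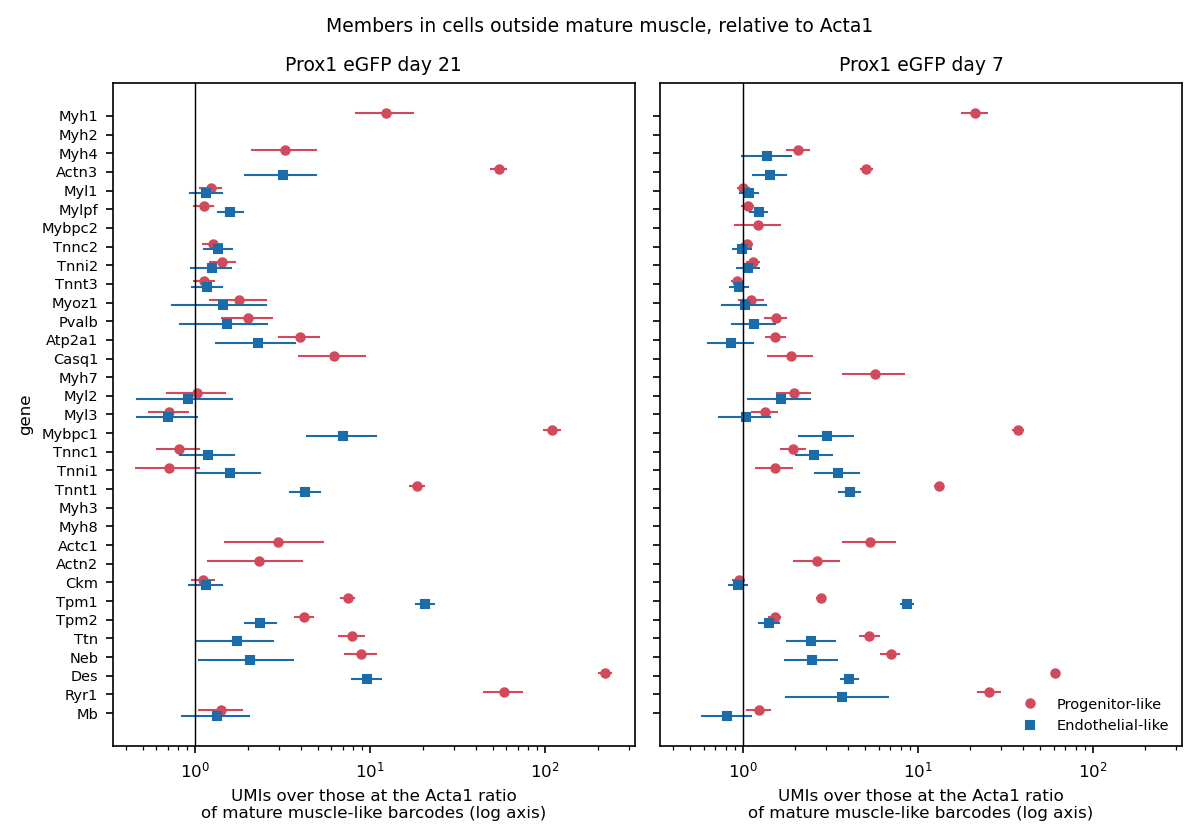
For Prox1 eGFP day 21 and day 7, UMIs of each gene divided by those at its Acta1 ratio in mature muscle-like barcodes (log axis, exact 95% intervals of counting error) in progenitor-like and endothelial-like cells. In progenitor-like cells Mylpf, Tnnc2, Tnnt3 and Ckm lie near 1, while Des, Mybpc1, Actn3, Ryr1 and Tnnt1 lie at 5.09 or more.

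In all cells outside the 3 muscle classes the 30 genes summed to 49.2 CPM in the Vegfc CRE library and to 111, 297 and 97.4 CPM at days 0, 7 and 21 of Prox1 eGFP. At day 7 the value was 180 CPM without cells over 1% in these genes, among them 1 barcode at 9.49%. Acta1 had 6.33 CPM in the Vegfc CRE library and 0, 54.0 and 21.9 CPM at days 0, 7 and 21. Of the genes with at least 10 UMIs over the pair, day 21 against day 7 gave 3 of 32 higher (14.3% of all genes) and 15 lower (6.31%), and Vegfc CRE against Prox1 eGFP at day 7 gave 4 of 31 higher (23.6%) and 21 lower (18.3%). Against day 0, day 7 gave 20 of 28 higher (29.7%) and 4 lower (16.7%), and day 21 gave 16 of 28 higher (29.0%) and 5 lower (16.6%). Cell types outside muscle differ between the libraries, and their part in these counts was not tested. At day 0 the sum held no skeletal actin, and Myh1, Myh2, Myh4, Myh7 and Myh8 had 0 UMIs as well. The UMIs there belonged to other genes of the list in particular cell types. All 135 Actn2 UMIs, 89 of 92 Neb and 60 of 72 Mylpf UMIs lay in T or NK-like cells, and 112 of 167 Ttn UMIs in dendritic-like cells at 161.5 CPM. Of 167 Tnni2 UMIs, 116 lay in cells of unnamed clusters and 47 in dendritic-like cells. Actn2 had 34.4 CPM in T or NK-like cells at day 0 and 83.9 CPM in those of Vegfc CRE, where they held 58 of 69 UMIs outside muscle.

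Mural-like cells, the pericytes and smooth muscle of vessels, carried the members shared with smooth muscle. Tpm1 had 4528 CPM in those of Prox1 eGFP at day 21 and 1683 CPM in those of Vegfc CRE at day 7, and Tpm2 had 2952 and 2316 CPM. Des had 310.3 and 660.0 CPM and Actc1 54.3 and 36.0 CPM in the same cells. The type IIa chain Myh2 was also counted there, with 18 of its 19 UMIs outside muscle at day 21 and 11 of 25 in Vegfc CRE. In Vegfc CRE, neutrophil-like cells held 50 of 90 Myh4 UMIs outside muscle.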

How the data were processed

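Cells of collagenase and dispase digests of tendon were run on 10x Single Cell 3' v3, per the labels' protocols. The deposited files hold raw UMI counts per gene and barcode, made with Cell Ranger 5.0.1 on mm10, per the submitters' processing notes; filters before deposit are not given in the sources used here. Deposited depth was 92568978 UMIs in Vegfc CRE and 6761289, 59312181 and 59894792 in Prox1 eGFP at days 0, 7 and 21.

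Barcodes were kept from 500 genes and 1000 UMIs upward if mitochondrial UMIs stayed below 15%. Scrublet doublets were removed (92 in Vegfc CRE; 0, 1 and 85 at days 0, 7 and 21), but it marked too few cells to have worked at days 0 and 7. Leiden clustering (scanpy 1.11.5, leidenalg 0.10.2, Python 3.11.15; 2000 variable genes, 30 components, 15 neighbours, resolution 1.0, no integration) left out 82 sarcomere genes and gave 42 clusters, named "-like" from at least 3 fixed markers; 4 stayed unnamed. The rule for a close second class was set after the clusters were seen. A class was compared with at least 30 cells in both libraries. CPM has an exact Poisson, a share an exact Clopper-Pearson and a ratio an exact conditional binomial 95% interval; limits for 0 use 3 counts. TMM factors (edgeR 4.0.16, R 4.3.3) were an alternative. All 34 genes are accounted for; those with at least 10 UMIs in a class are given with values, and of the further 48 genes the 5 highest are named. The members and lists were chosen with earlier results of these data known. The code was tested on simulated data.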

Additional observations from a re-analysis of the deposited data

Results flagged for a closer look

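Barcodes left out by the cell filter or as doublets, which no comparison uses, also held muscle RNA. At least 10% of their UMIs were in the 34 genes in 19 of 1732 removed barcodes of Vegfc CRE, and in 0 of 27, 6 of 180 and 12 of 401 removed barcodes of Prox1 eGFP at days 0, 7 and 21. They attracted attention as data left unanalysed. Only 27 barcodes were removed at day 0, too few for the 0 there to be set against the other libraries. Their median depth was 740.0 UMIs in Vegfc CRE and 782.5 and 881.5 UMIs at days 7 and 21, and they held 563, 221 and 854 Acta1 UMIs. In Vegfc CRE these 19 outnumber the 16 mature muscle-like barcodes that were kept.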

How the results depend on the processing

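Of 130 recomputed values, 79 stayed within the interval or factor set for them and 51 moved. They cover sums, shares and counts; among single genes called in mature barcodes, the log2 ratio of Myh3 (day 21 over day 7) turned to 1.65 without 1 day 7 barcode and that of Myh7 to -0.02 by the mean over barcodes. The clusters taken separately, the mean CPM over barcodes and CPM over the UMIs of all other genes were chosen after seeing the data. With sarcomere genes kept in the clustering, Prox1 eGFP day 7 gave 87.0% Myh4 and 5.69% Tnni1, and other cells summed to 244 CPM at day 7 and 109.8 CPM at day 21; with doublets kept, 102.7 CPM at day 21. The stricter cell filter gave mature shares of 0.0770% in Vegfc CRE and 1.18% at day 21, Tnni1 of 5.63% at day 7, Myh4 of 62.0% and slow light chain of 16.2% at day 21, and other-cell sums of 53.1 CPM in the Vegfc CRE library, 102.5 CPM at day 0 and 472.7 CPM at day 7. Barcodes chosen by at least 10% of UMIs in the members gave 85.1% Myh4 and 5.67% Tnni1 at day 7.

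By the mean share per barcode, Myh4, Tnni1 and slow light chain were 45.8%, 31.1% and 32.7% at day 21, against 73.9%, 30.6% and 23.7% at day 7. Without the barcode with most UMIs of the family they were 42.0%, 23.8% and 18.2% at day 21, against 84.6%, 6.42% and 7.18% at day 7. Cluster 20 alone gave 63.6% Myh4 and 16.2% slow light chain at day 21, against 86.9%, with 5.35% Tnni1 and 6.49% slow light chain, at day 7. Cluster 30 alone gave 18.2%, 24.8% and 19.1% at day 21, against 67.8%, 28.3% and 15.3% at day 7, and 4 members lower in place of 11; the mean over barcodes gave 7 lower. Without cells over 1% in the 30 genes, other cells summed to 42.0 CPM in the Vegfc CRE library and 180 and 84.8 CPM at days 7 and 21; as a mean over classes, to 68.4 CPM in the Vegfc CRE library and 140.4, 181.6 and 101.7 CPM at days 0, 7 and 21. TMM scaling gave log2 ratios of the summed members of 6.08 (day 7 over day 0), -1.70 (day 21 over day 7) and -3.81 (Vegfc CRE over Prox1 eGFP at day 7), and all deposited barcodes gave -3.95 for the last. The cause of these moves was not tested.

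No paired analysis was possible because each group is 1 library, so leaving out a replicate was not run either. Depth limits the heavy chain shares, which rest on 946 UMIs at day 21 and 349 in Vegfc CRE.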
